A study of Mus musculus with 12 samples.

Results

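The genes described here encode 8 receptors of myeloid cells grouped as inhibitory immunoreceptors and 2 tyrosine phosphatases of immunoreceptor signaling (Ptpn6 and Ptpn22). The receptors are Lilrb4a, Pirb, Cd300a, Cd300lf, Siglece, Cd33, Sirpa, and Clec12a. Cd33 is counted among the 8 although its predicted tail in mice holds 0 matches to the inhibitory motif described below. They were chosen by gene symbol, with earlier results of these data known, as 10 of the 35303 symbols in the count table. All 10 passed the filter on low counts that left 17676 symbols for testing. Ptpn6 encodes SHP-1, whereas Ptpn22 encodes a phosphatase of another family (LYP, or PEP in mice), so the group holds 1 SHP phosphatase.

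Bulk RNA-seq compared 3 groups of mouse myeloid-derived suppressor cells (MDSCs), which are immunosuppressive immature myeloid cells, with 4 biological replicates in each group. All cells were wild type, came from the bone marrow of female C57BL/6 mice aged 6 to 10 weeks, were grown for 3 days with IL-6 and GM-CSF, and were purified by CD11b and Gr1. The groups were unmodified MDSCs (MDSC), MDSCs carrying blank nanoparticles of the polymer PLGA clicked to an azido sugar on the cell surface (MDSC-NP-Blk, also called cells with blank particles below), and MDSCs carrying the same kind of particle loaded with rapamycin, an inhibitor of the kinase mTOR (CITED). IL-6 (40 ng/ml) was present in the medium of all groups during the final 24 hours. Whether the unmodified MDSCs also received the azido sugar is not stated, so the sugar, the click reaction, and the blank particle cannot be told apart in a comparison with MDSC.

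An inhibitory immunoreceptor carries in its cytoplasmic tail a short sequence around a tyrosine, the immunoreceptor tyrosine-based inhibitory motif (ITIM). Src family kinases such as Lyn phosphorylate that tyrosine when the receptor binds its ligand, and the phosphotyrosine recruits SHP-1, SHP-2 (Ptpn11), or the lipid phosphatase SHIP-1 (Inpp5d), which reverse the signals that activating receptors send through adaptors with the activating counterpart of the motif (ITAM). In neutrophils and monocytes, these receptors are known to raise the threshold for phagocytosis, degranulation, and cytokine release.

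Stretches of coding sequence that hold the motif, and those of the catalytic signature of the phosphatases, are printed first, from GRCm39 with the GENCODE annotation. The motif is S, I, V, or L, any residue, Y, any 2 residues, and I, L, or V. For each receptor with a match in its tail, the 18 bases that encode the motif nearest the membrane within 1 exon are shown. They run 5′ to 3′ on the coding strand, with the codon of the tyrosine in capitals. For the phosphatases, the 27 bases that encode the catalytic signature are shown, with the codon of the catalytic cysteine in capitals.
Lilrb4a: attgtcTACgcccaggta
Pirb: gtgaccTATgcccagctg
Cd300a: gtggaaTATagcacattg
Cd300lf: ctctgtTATgcagacctg
Siglece: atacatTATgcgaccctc
Sirpa: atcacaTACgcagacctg
Clec12a: attgttTATgcaaatctc
Ptpn6: catTGCagcgctggcatcggccgcacg
Ptpn22: cacTGCagtgccggctgcggaaggaca

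The Lilrb4a stretch lies at chr10:51372117-51372134 on the plus strand in exon 8 of 9, and its tyrosine is residue 300 of 335. That of Pirb lies at chr7:3715785-3715802 on the minus strand in exon 15 of 15 (residue 794 of 841). Cd300a has its stretch at chr11:114790672-114790689, plus strand, exon 6 of 7 (residue 262 of 318), and Cd300lf at chr11:115008474-115008491, minus strand, exon 6 of 7 (residue 241 of 337). In Siglece it is at chr7:43301009-43301026, minus strand, in the last of 7 exons (residue 432 of 467), and in Sirpa at chr2:129471874-129471891, plus strand, in the last of 8 exons (residue 440 of 513). Clec12a, a type II membrane protein, encodes it at the other end of the protein, at chr6:129327396-129327413 on the plus strand in exon 1 of 6 (residue 7 of 267). The signature stretch spans an intron in both phosphatases, from chr6:124699023-124701927 on the minus strand for Ptpn6 (cysteine 455 of 597) and from chr3:103784046-103784639 on the plus strand for Ptpn22 (cysteine 227 of 802). The predicted tails hold 3 such motifs in Pirb and in Sirpa, 2 in Lilrb4a, Cd300a, and Cd300lf, and 1 in Siglece and in Clec12a. The tail of Cd33 holds 0 in each of its transcripts searched, which were those of the consensus coding set (CCDS). A match of this length is common, as 49.1% of 21770 mouse proteins hold at least 1 somewhere along their length, so the count describes the letters and not a working site.

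The libraries held between 20604809 and 37855478 counts, and 3 counts, the smallest number treated as detection, were 7.92e-06% to 1.46e-05% of a library (counting error only). Values below are normalized counts, in which the depth of each library and a scaling factor (trimmed mean of M values, TMM) have been divided out and the result set to the mean library. The factors lay between 1.12 and 1.15 for MDSC but between 0.921 and 0.947 for all 8 particle libraries, so the choice of scaling bears on every comparison with MDSC. The tissue field of the labels names the CNS, but 8 of 9 CNS markers had a mean of 10 or less in every group. The exception was Mbp, with means of 1940 in MDSC, 2130 with blank particles, and 1900 in CITED. All 12 granulocytic markers exceeded 10 (S100a9 at 282000 in MDSC). Other myeloid markers moved with the groups: the summed level of 5 eosinophil markers was 32200 to 38300 in MDSC, 25400 to 30500 with blank particles, and 10600 to 10900 in CITED, and that of 8 macrophage markers was 8200 to 8740, 4360 to 5890, and 4960 to 5190. Markers of mast cells and basophils (6 genes) summed to 11300 to 12300, 12900 to 14200, and 7240 to 7690. The 9 monocytic markers summed to 100000 to 105000, 124000 to 136000, and 129000 to 135000. Itgam, which is also among the 12 granulocytic markers, contributed means of 51800, 61200, and 69800 to these sums. Dendritic cell markers (8 genes) summed to 11600 to 12400, 8160 to 8630, and 10100 to 11100. In CITED against MDSC, 4 monocytic markers were higher and 3 lower. The log2 fold changes were 1.06 for Cd68, 1 for Csf1r, 0.43 for Itgam, and 0.24 for Adgre1. They were -1.18 for Ccr2 and -0.35 for both Ly6c2 and Fcgr1. For eosinophil markers the split was 1 higher and 3 lower, for macrophage markers 1 and 5, and for mast cell and basophil markers 0 and 5. Of the 12 granulocytic markers, 6 were higher and 4 lower in CITED against MDSC, with log2 fold changes from -4.41 for Mpo and -1.21 for Camp to 1.47 for Mmp8 and 1.54 for Csf3r (edgeR adjusted p = 5.2e-31, 1.1e-18, 2.4e-25, and 6.4e-22), and S100a8 and S100a9 at 0 and 0.01 did not pass the test. In bulk samples, fewer cells of a type and less RNA per cell cannot be told apart, and the part of cell composition in the changes below was not tested.

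In CITED against MDSC, all 10 genes passed an adjusted p of 0.05 in edgeR's quasi-likelihood test, with 8 higher and 2 lower, beside 44.5% of all genes tested (22.2% higher and 22.2% lower) and 67.9% of the genes with a mean normalized count of at least 50. Only Siglece (higher) and Ptpn22 (lower) also passed the log2 fold change threshold of 1, beside 9.99% of all genes. In MDSC-NP-Blk against MDSC, 7 genes were higher and 1 was lower, beside 38.6% of all genes (19.9% higher, 18.6% lower) and 60.4% of those with a mean of at least 50. In CITED against MDSC-NP-Blk, 5 were higher and 2 were lower, beside 22% of all genes (10.5% higher, 11.4% lower) and 34.9% of those with a mean of at least 50. In the last 2 comparisons, edgeR and DESeq2 each called 0 of the 10 with the fold change threshold (4.74% and 2.65% of all genes in edgeR), and 8 of the 10 had an unadjusted p under 0.05 in each. The libraries of the compared groups did not overlap for 10, 8, and 7 of the genes in the 3 comparisons, beside 42.5%, 35.6%, and 21.2% of all genes. CITED against MDSC and MDSC-NP-Blk against MDSC share the same 4 MDSC libraries, and the comparison of CITED with MDSC-NP-Blk shares libraries with both, so the counts are not independent of each other.

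The median log2 fold change over the 10 genes was 0.70 in CITED against MDSC, beside -0.05 over all genes tested. It was 0.42 in MDSC-NP-Blk against MDSC, beside -0.03, and 0.22 in CITED against MDSC-NP-Blk, beside 0. The genes divided by where their change fell. Cd33, Ptpn6, and Cd300a were higher with blank particles and did not differ between the particle groups past the test, whereas Siglece, Pirb, Sirpa, and Cd300lf were higher with blank particles and higher again in CITED. Lilrb4a was higher, and Clec12a lower, in CITED than in each other group, and neither passed the test with blank particles. Ptpn22 was lower in each step. Without scaling factors, the 7 receptors that rose in CITED against MDSC still passed the test, at log2 fold changes of 0.38 to 0.96, but with blank particles the same 7 lay between -0.31 and 0.70, with Lilrb4a (edgeR adjusted p = 0.00021) and Cd300lf (0.27) below 0.

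**Figure D1:**
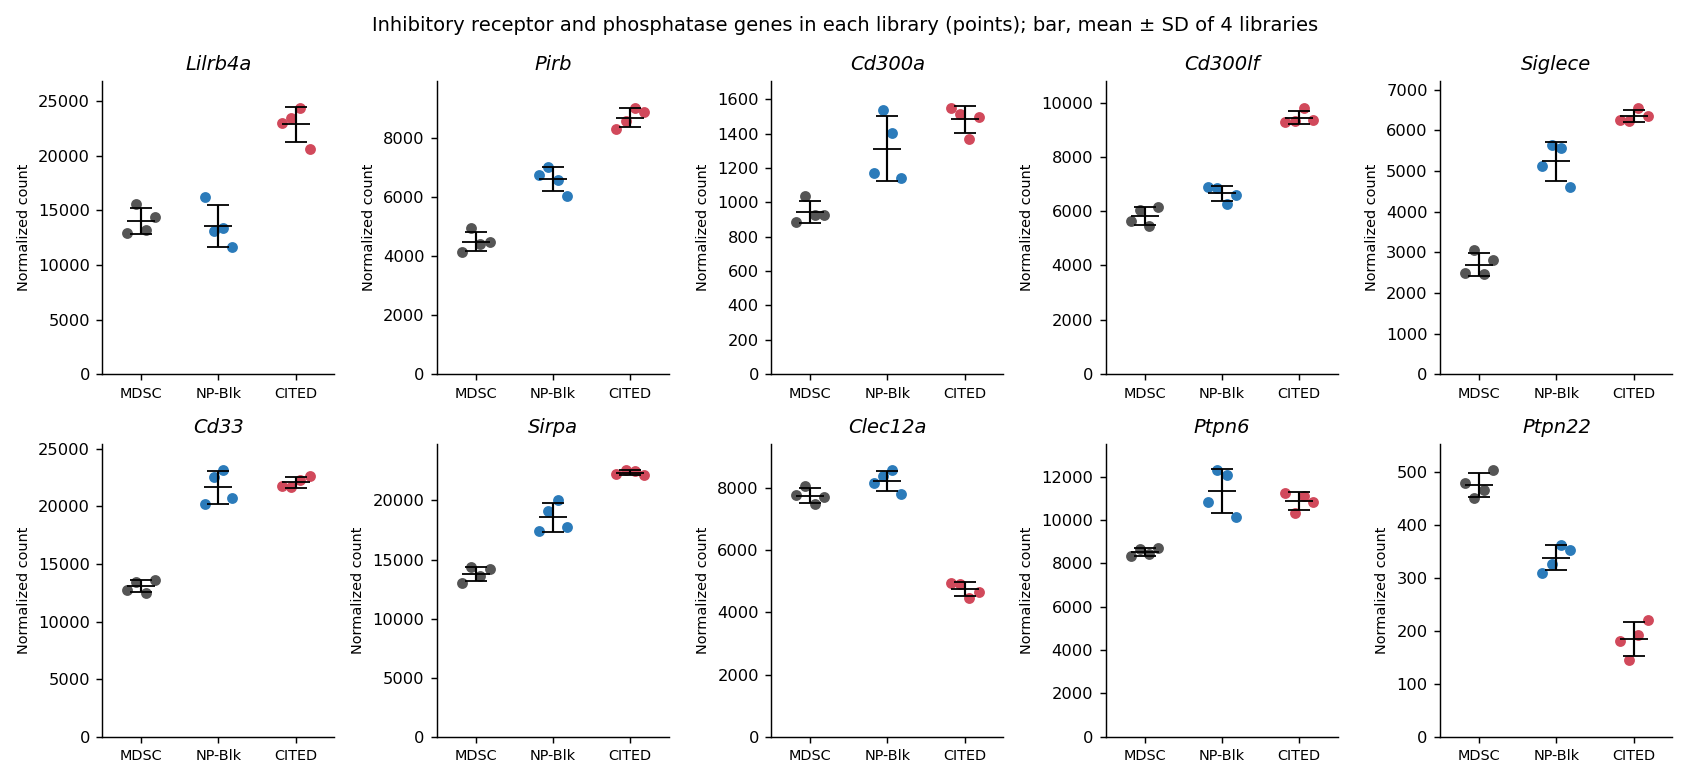
Normalized count (y axis, from 0) of each of the 10 genes in every library, by group (x axis; NP-Blk is MDSC-NP-Blk), with the mean and SD of 4 libraries. The CITED libraries of Lilrb4a (20590 to 24395) lie above all others while its MDSC and MDSC-NP-Blk libraries overlap, Clec12a is lowest in CITED (4469 to 4957), and Ptpn22 steps down from MDSC (450 to 503) to CITED (145 to 221).

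Lilrb4a (chr10:51367027-51372707, plus strand) encodes gp49B, an immunoglobulin-like inhibitory receptor of mast cells, neutrophils, and macrophages. Its normalized counts were 12878, 15592, 13236, and 14349 in MDSC, 16223, 13087, 13392, and 11614 with blank particles, and 23017, 23434, 24395, and 20590 in CITED. Every CITED library lay above all 8 others, and the MDSC and MDSC-NP-Blk libraries overlapped. The log2 fold change was 0.71 ± 0.0687 (SE) in CITED against MDSC (edgeR adjusted p = 9.7e-11) and 0.75 ± 0.0688 against MDSC-NP-Blk (1.4e-10). Blank particles gave -0.05, with a 95% interval of -0.18 to 0.09 and an adjusted p of 0.65. MDSC-NP-Blk replicate 1 held the highest value of its group, and without it the change with blank particles was -0.14 (edgeR adjusted p = 0.047).

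Counts of Lilrb4a were assigned in the presence of near-copies. Of its 1432 words of 31 bases, 100% also occurred in the annotated read-through gene Gm49339, which spans Lilrb4b and Lilrb4a, and 43.5% occurred in a gene other than Gm49339. Lilrb4b, the neighboring paralog, encodes gp49A, which is known to lack the inhibitory motif. The ratio of Lilrb4a to Gm49339 counts was 2.51 in MDSC-NP-Blk replicate 1 and 1.34, 1.3, and 1.25 in the others of that group, so the library that was high in Lilrb4a assigned fewer reads to the read-through gene. The 3 genes summed gave 28998, 31741, 28196, and 31015 in MDSC, 31494, 31202, 32408, and 29039 with blank particles, and 43568, 44946, 48532, and 46588 in CITED. The sum no longer singled out that library, the MDSC and MDSC-NP-Blk libraries still overlapped, and CITED still lay above them all. Its log2 fold change was 0.61 in CITED against MDSC and 0.56 against MDSC-NP-Blk, whereas that of blank particles was 0.05, the opposite sign to that of Lilrb4a alone (edgeR adjusted p = 0.43). This sum was chosen after the annotation had been seen.

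Pirb (chr7:3714408-3723416, minus strand) encodes paired immunoglobulin-like receptor B, which binds MHC class I. Normalized counts of Pirb were 4144, 4927, 4396, and 4466 in MDSC, 6735, 7000, 6575, and 6036 with blank particles, and 8276, 8550, 9012, and 8876 in CITED. The 3 groups did not overlap and rose in that order. CITED against MDSC gave a log2 fold change of 0.95 ± 0.0543 (edgeR adjusted p = 1.3e-16), with a 95% interval of 0.84 to 1.06 that includes the threshold of 1. It was 0.56 in MDSC-NP-Blk against MDSC (1.9e-10) and 0.40 in CITED against MDSC-NP-Blk (4.8e-07).

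Pirb has activating partners, the PIR-A receptors, whose genes lie near it and share its extracellular sequence. Of its 31-base words, 46.2% occurred in other genes, 28.3% in Pira12 alone, and the partners shared more (95.6% of the words of Pira1 and 96.6% of Pira2). The normalized counts of Pira1, Pira2, Pira12, Pira13, and Lilra6 summed to 6115, 6781, 6184, and 6542 in MDSC, 5567, 6847, 7112, and 5245 with blank particles, and 8715, 8441, 9219, and 8501 in CITED. The sum overlapped between MDSC and MDSC-NP-Blk, unlike Pirb, and was above both in CITED. Within a library, the ratio of Pirb to the sum was 0.699 ± 0.0233 (SD, n = 4) in MDSC, 1.08 ± 0.128 with blank particles, and 0.996 ± 0.0412 in CITED. The MDSC ratios, 0.678 to 0.727, lay below all others, and those of the particle groups overlapped (0.925 to 1.21 and 0.95 to 1.04). With Pirb and the 5 partners counted as 1 gene, the log2 fold change with blank particles was 0.23 instead of 0.56 (edgeR adjusted p = 0.00075), and that of CITED against MDSC was 0.68 instead of 0.95. Whether reads were assigned to the right gene of this locus was not tested.

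Cd300a (chr11:114768840-114795480, plus strand) encodes a receptor for phosphatidylserine and phosphatidylethanolamine, lipids exposed on dying cells. Libraries held Cd300a normalized counts of 888, 1038, 925, and 924 in MDSC, 1170, 1536, 1404, and 1142 with blank particles, and 1552, 1517, 1369, and 1497 in CITED. All particle libraries exceeded the MDSC libraries, and the particle groups overlapped, with the largest relative spread of the receptors in MDSC-NP-Blk (coefficient of variation 14.4%). The log2 fold change was 0.65 ± 0.0799 in CITED against MDSC (edgeR adjusted p = 1.5e-08) and 0.48 in MDSC-NP-Blk against MDSC (6.3e-06). Between the particle groups it was 0.17 with an interval of 0.01 to 0.33 and did not pass the test (0.13), but without MDSC-NP-Blk replicate 2, the highest of its group, it was 0.26 and passed (0.016).

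Cd300lf (chr11:115007040-115024818, minus strand) encodes a relative of Cd300a that binds ceramide and phosphatidylserine. Its normalized counts were 5648, 6027, 5457, and 6137 in MDSC, 6896, 6851, 6271, and 6598 with blank particles, and 9275, 9334, 9810, and 9340 in CITED. The groups did not overlap, with a small gap between MDSC and MDSC-NP-Blk and a wide one below CITED. The log2 fold change was 0.70 ± 0.0491 in CITED against MDSC (edgeR adjusted p = 3.3e-14) and 0.50 against MDSC-NP-Blk (5.2e-10). The change with blank particles, 0.19 (edgeR adjusted p = 0.0015), was -0.07 (0.27) without scaling factors and 0.06 (0.34) after a correction for transcript length. The ratio of Cd300a to Cd300lf, 0.162 ± 0.0103 in MDSC, 0.198 ± 0.0304 with blank particles, and 0.157 ± 0.0123 in CITED, overlapped between MDSC and each particle group.

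Siglece (chr7:43298405-43309607, minus strand) encodes Siglec-E, a receptor for sialic acid on neutrophils and macrophages, and it had the highest log2 fold change of the 8 receptors in both comparisons with MDSC. Its normalized counts were 2487, 3049, 2460, and 2802 in MDSC, 5132, 5645, 5571, and 4615 with blank particles, and 6269, 6235, 6562, and 6361 in CITED. The groups did not overlap, and the mean of MDSC-NP-Blk (5241) lay nearer to that of CITED (6357) than to that of MDSC (2699). CITED against MDSC gave a log2 fold change of 1.24 ± 0.063 (edgeR adjusted p = 6.7e-18), a 2.36-fold difference. It was 0.96 ± 0.0628 in MDSC-NP-Blk against MDSC (1.3e-14), just under the threshold of 1, and 0.28 in CITED against MDSC-NP-Blk (0.00081). Without scaling factors the first of these was 0.96 and the second 0.70. The nearest genes in the pair of log2 fold changes against MDSC, among 10554 with a mean of at least 50, were Selp (1.26 and 0.95), Cd37 (1.21 and 0.96), and Cacnb1 (1.22 and 0.99), and 29 genes lay within a distance of 0.1.

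Cd33 (chr7:43173634-43193875, minus strand) encodes another sialic acid receptor, which in mice has no match to the motif in its tail. Normalized counts of Cd33 were 12758, 13452, 12510, and 13571 in MDSC, 20178, 22538, 23116, and 20736 with blank particles, and 21730, 21673, 22302, and 22648 in CITED. The particle groups overlapped, and both lay well above MDSC. The log2 fold change was 0.76 ± 0.0471 in CITED against MDSC (edgeR adjusted p = 1.4e-15) and 0.73 in MDSC-NP-Blk against MDSC (9.7e-15). Between the particle groups it was 0.03, with an interval of -0.07 to 0.12 (0.74). Within a library, the ratio of Siglece to Cd33 was 0.206 ± 0.0145 in MDSC, 0.242 ± 0.0142 with blank particles, and 0.288 ± 0.00546 in CITED, and CITED (0.281 to 0.294) did not overlap the others.

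Sirpa (chr2:129434039-129474148, plus strand) encodes SIRPα, the receptor for CD47, whose engagement restrains phagocytosis. Libraries held Sirpa normalized counts of 13007, 14336, 13571, and 14201 in MDSC, 17415, 19108, 20018, and 17742 with blank particles, and 22276, 22548, 22499, and 22148 in CITED. The groups did not overlap, and the CITED libraries agreed closely (coefficient of variation 0.842%). The log2 fold change was 0.70 ± 0.0472 in CITED against MDSC (edgeR adjusted p = 1.2e-14), 0.43 in MDSC-NP-Blk against MDSC (2.4e-09), and 0.27 in CITED against MDSC-NP-Blk (3.6e-05). The activating relatives Sirpb1a, Sirpb1b, and Sirpb1c rose by 1.11, 1.38, and 1.01 in CITED against MDSC (edgeR adjusted p = 1.5e-08, 7.3e-17, and 1e-13). The ratio of Sirpa to the 3 genes summed was 8.52 ± 0.472 in MDSC, 7.16 ± 0.593 with blank particles, and 6.36 ± 0.245 in CITED. MDSC (8.04 to 9.05) lay above both particle groups, which overlapped.

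Clec12a (chr6:129319654-129342266, plus strand) encodes a C-type lectin that senses uric acid crystals, and it was the receptor of the 8 that fell. Its normalized counts were 7769, 8064, 7472, and 7719 in MDSC, 8146, 8385, 8566, and 7821 with blank particles, and 4957, 4920, 4469, and 4643 in CITED. All CITED libraries lay below all others, and MDSC and MDSC-NP-Blk overlapped. Its log2 fold change was -0.71 ± 0.0488 in CITED against MDSC (edgeR adjusted p = 2e-14) and -0.79 against MDSC-NP-Blk (1e-14). With blank particles it was 0.09, with an interval of -0.01 to 0.18 (0.17). Without scaling factors that value was -0.18 (edgeR adjusted p = 0.0021), in a setting where the median of all genes with a mean of at least 50 was itself -0.26.

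**Figure D2:**
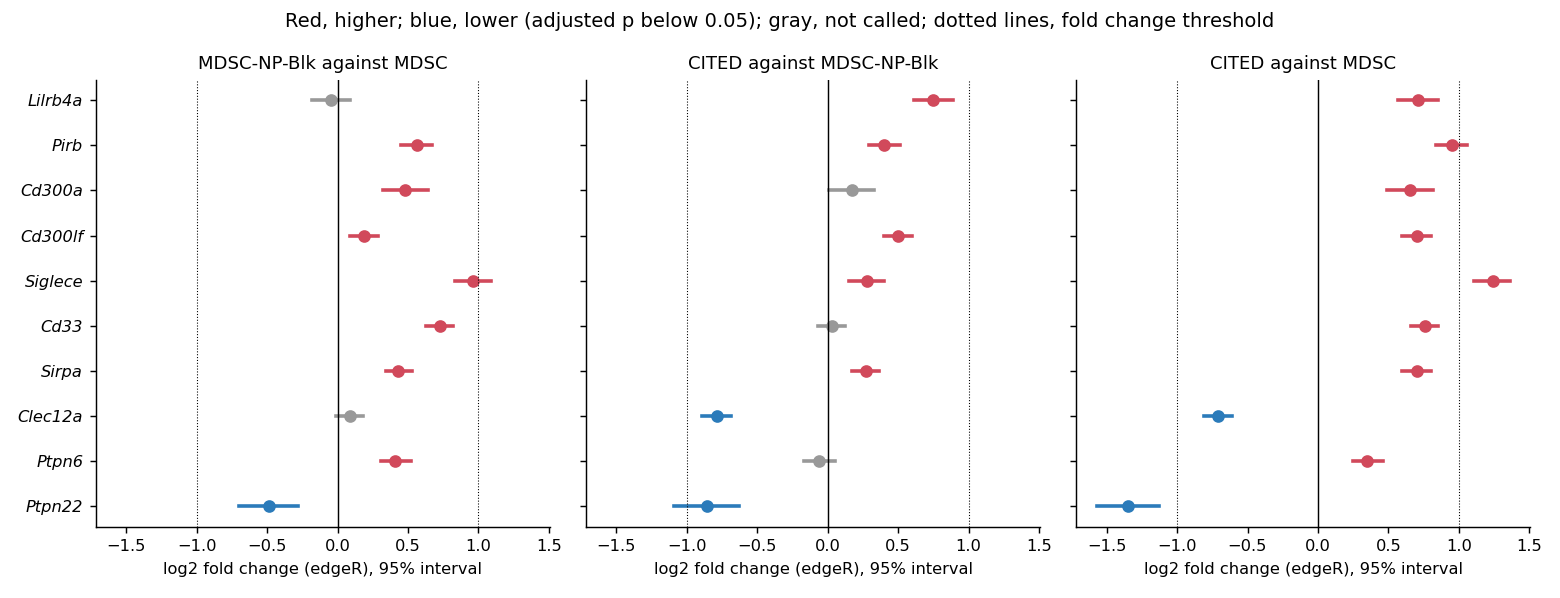
Log2 fold change (x axis) of each gene (y axis) in the 3 comparisons, from edgeR, with 95% intervals, and dotted lines at -1 and 1. Lilrb4a and Clec12a are near 0 with blank particles (-0.05 and 0.09) and at 0.75 and -0.79 in CITED against MDSC-NP-Blk, whereas Cd33 shows the reverse (0.73 and 0.03).

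Ptpn6 (chr6:124697670-124715840, minus strand) encodes SHP-1, the phosphatase that most of these receptors recruit. Its normalized counts were 8331, 8648, 8408, and 8699 in MDSC, 10827, 12284, 12078, and 10146 with blank particles, and 11243, 10327, 11117, and 10836 in CITED. Both particle groups lay above MDSC and overlapped each other. The log2 fold change was 0.35 ± 0.0523 in CITED against MDSC (edgeR adjusted p = 6.4e-07) and 0.41 in MDSC-NP-Blk against MDSC (5.2e-08). Between the particle groups it was -0.06, with an interval of -0.17 to 0.05 (0.48). Without scaling factors the change in CITED against MDSC was 0.08 and did not pass the test (0.22).

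Ptpn22 (chr3:103767062-103819565, plus strand) encodes a phosphatase that acts on Src family kinases and their substrates and is best known from T cells. Ptpn22 had normalized counts of 480, 450, 466, and 503 in MDSC, 310, 327, 362, and 352 with blank particles, and 181, 145, 193, and 221 in CITED. The groups did not overlap and fell in that order. CITED against MDSC gave a log2 fold change of -1.35 ± 0.109 (edgeR adjusted p = 1.2e-12), or 2.55-fold lower. It was -0.49 in MDSC-NP-Blk against MDSC (2e-04) and -0.86 in CITED against MDSC-NP-Blk (2.1e-07). T cell markers stayed low, with a summed level of 7 genes between 33.3 and 67.5 in every library, while 6 B cell markers summed to 311 to 376 in MDSC, 187 to 254 with blank particles, and 77.5 to 115 in CITED, and their part in the fall of Ptpn22 was not tested. The genes nearest to it in the pair of log2 fold changes against MDSC were Sapcd2 (-1.33 and -0.50), Dipk2a (-1.35 and -0.52), and Suv39h1 (-1.38 and -0.51), and 26 of 10554 genes lay within a distance of 0.1.

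SHP-1 and SHP-2 compete for the same kind of phosphotyrosine, so the phosphatases were also compared within libraries. Ptpn11, which encodes SHP-2, had normalized counts of 3473, 3352, 3518, and 3598 in MDSC, 2688, 3259, 3345, and 2868 with blank particles, and 2598, 3043, 2905, and 2985 in CITED. All values with particles lay below those of MDSC. Its log2 fold change was -0.27 in CITED against MDSC (edgeR adjusted p = 0.00036). The ratio of Ptpn6 to Ptpn11 was 2.45 ± 0.0897 in MDSC, 3.74 ± 0.217 with blank particles, and 3.79 ± 0.397 in CITED, and that of Ptpn6 to Ptpn22 was 18 ± 0.896, 33.6 ± 3.65, and 60 ± 9.2. The first ratio overlapped between the particle groups, and the second did not overlap between any groups. These ratios do not depend on the scaling of libraries, and no test was run on them. The trend with transcript length described below need not cancel in a ratio of genes of unlike length. Ptpn11 was singled out for its role, after its values had been seen.

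**Figure D3:**
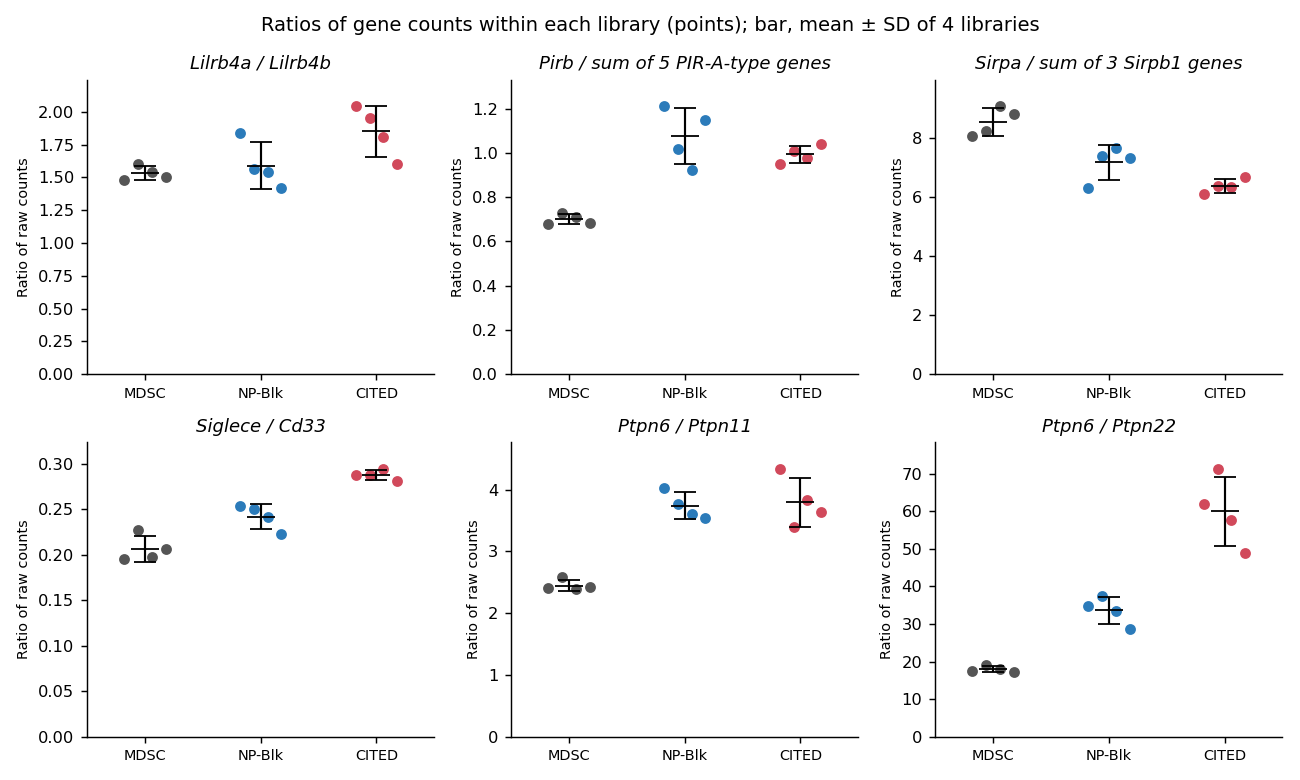
Ratio of raw counts of gene pairs within each library (y axis, from 0), by group (x axis; NP-Blk is MDSC-NP-Blk), with the mean and SD of 4 libraries. The mean ratio of Ptpn6 to Ptpn22 is 18 in MDSC and 60 in CITED, that of Pirb to its partners 0.699 and 0.996, and that of Sirpa to its partners 8.52 and 6.36.

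Per kilobase of the canonical transcript, Lilrb4a had the highest level of the 10 genes in every group, at 9590 ± 838 normalized counts per kb in MDSC, 9290 ± 1320 with blank particles, and 15600 ± 1110 in CITED. Ptpn22 had the lowest, at 172 ± 8.17, 123 ± 8.49, and 67.1 ± 11.4, below Cd300a (203, 283, and 319). In MDSC, Ptpn6 was next to Lilrb4a at 3840, and Clec12a (3100), Cd300lf (3090), and Sirpa (3020) followed with overlapping libraries. Cd33 (2280), Pirb (1160), and Siglece (682) then stood apart from each other. In CITED, Cd300lf (5010), Ptpn6 (4900), and Sirpa (4900) overlapped in that place, Cd33 was at 3850, and Pirb (2250) stood above Clec12a (1900), which had moved from the third to the seventh place. Siglece reached 1610. In MDSC-NP-Blk, the libraries of Sirpa (4070), Cd33 (3770), Cd300lf (3530), and Clec12a (3290) overlapped each with the next. These levels rest on 1 annotated transcript per gene.

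Other genes of the pathway moved in both directions. Of 24 other inhibitory receptors tested, 10 were higher and 7 lower in CITED against MDSC (median log2 fold change 0.18). Of all genes tested, 44.5% were called there, and 67.9% of those with a mean of at least 50. Without scaling factors, 8 of the receptors were higher and 8 lower (median -0.09). With blank particles 5 were higher and 4 lower (median -0.02), beside 38.6% and 60.4% called. Without scaling factors the last comparison gave 4 higher and 9 lower (median -0.28). Fcgr2b, the inhibitory Fc receptor, rose by 1.08 in CITED, Klra2 by 1.14, and Vsir, which encodes VISTA, by 0.58 (edgeR adjusted p = 2.1e-20, 2.1e-13, and 1.4e-13). Cd244a fell by 2.15, the collagen receptor Lair1 by 1.08, and the adhesion receptor Ceacam1 by 0.86 (1.5e-15, 6.2e-15, and 9.2e-14). Cd244a, a receptor of the SLAM family, is known to act in both directions, and the list also counts Lilrb4b, whose log2 fold change was 0.44 (1.3e-08). With blank particles, Fcgr2b, Klra2, and Vsir stood at 0.56, 0.57, and 0.58 against MDSC, and Cd244a, Lair1, and Ceacam1 at -0.29, -0.52, and -0.58. Between the particle groups, Vsir was at 0, Fcgr2b at 0.52, Klra2 at 0.57, and Cd244a at -1.86.

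Activating receptors counter the inhibitory ones and often share their ligands. Of 31 tested, 21 were higher and 3 lower in CITED against MDSC (median 0.54, or 0.26 without scaling factors). Of all genes tested, 44.5% were called there, and 67.9% of those with a mean of at least 50. With blank particles 17 were higher and 1 lower (median 0.37), beside 38.6% and 60.4% called. Without scaling factors that split was 12 higher and 8 lower (median 0.11). Clec4d, a C-type lectin for mycobacterial glycolipid, rose by 1.95, Cd300c2 by 1.51, and the activating Fc receptor gene Fcgr3 by 1.11 (edgeR adjusted p = 3.7e-25, 1.1e-17, and 2.6e-20), whereas Fcgr1 fell by 0.35 and Trem3 by 0.21 (0.0052 and 0.012). All 3 adaptors rose, Tyrobp (DAP12) by 1.26, Hcst (DAP10) by 0.97, and Fcer1g (the common Fc receptor γ chain) by 0.92 (7.5e-21, 9.2e-09, and 1.8e-16). Hcst signals through a motif of another kind than the ITAM. With blank particles the same adaptors rose by 0.91, 0.93, and 0.74 (1.1e-16, 3.4e-08, and 1.1e-13).

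Of 22 Src family, Syk, and proximal signaling genes, 14 were higher and 5 lower in CITED against MDSC (median 0.22). Without scaling factors, 7 were higher and 6 lower (median -0.05). Of all genes tested, 44.5% were called in the reported fit, and 67.9% of those with a mean of at least 50. The Src family kinase genes Src, Fgr, and Lyn rose by 1.07, 0.72, and 0.56 (edgeR adjusted p = 2.4e-12, 7.4e-13, and 5.6e-12), and the ubiquitin ligase gene Cbl, the phospholipase gene Plcg2, and the docking protein gene Dok2 fell by 0.39, 0.31, and 0.28 (7.4e-05, 1.3e-06, and 0.0014). Of 16 other phosphatases, 7 were higher and 5 lower (median 0.04), beside the same shares of all genes. Without scaling factors, 3 were higher and 9 lower (median -0.23). Dusp22 and Ptpn12 rose by 0.69 and 0.60 (7.6e-10 and 2.3e-11), and Ubash3a, Ptpro, and Ptpn7 fell by 2.14, 1.26, and 0.31 (1.3e-10, 1e-05, and 8.8e-05). Inpp5d, which encodes SHIP-1 and was named for its role after its values had been seen, had a log2 fold change of -0.05 with an interval of -0.15 to 0.05 (0.48). With blank particles, 12 of the 22 genes were higher and 2 lower (median 0.17, or -0.09 without scaling factors). Among the 16 phosphatases, 8 were higher and 6 lower there (median 0.04, or -0.22), beside 38.6% and 60.4% called. Log2 fold changes with blank particles were 0.67, 0.46, and 0.43 for Src, Fgr, and Lyn. They were 0.70 and 0.51 for Dusp22 and Ptpn12, and -1.33 for Ubash3a.

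Of 12 ligand genes tested, 8 were higher and 1 lower in CITED against MDSC (median 0.49, or 0.22 without scaling factors). Of all genes tested, 44.5% were called there, and 67.9% of those with a mean of at least 50. With blank particles 8 were higher and 3 lower (median 0.42), beside 38.6% and 60.4% called. Without scaling factors that split was 6 higher and 3 lower (median 0.15). The MHC class I genes H2-D1 and H2-K1, ligands of Pirb, rose by 1.64 and 1.08 in CITED (edgeR adjusted p = 3.2e-25 and 1.1e-19) and by 1.11 and 0.81 with blank particles, and the apolipoprotein gene Apoe rose by 0.99 (2.1e-15). C1qa, a complement gene that is also among the 8 macrophage markers, fell by 4.05 (1.5e-19), and the part of macrophages in its fall was not tested. Cd47, the ligand of Sirpa, singled out after its values had been seen, was 0.38 higher in CITED and 0.35 higher in MDSC-NP-Blk than in MDSC, with 0.03 between the particle groups (interval -0.06 to 0.12).

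**Figure D4:**
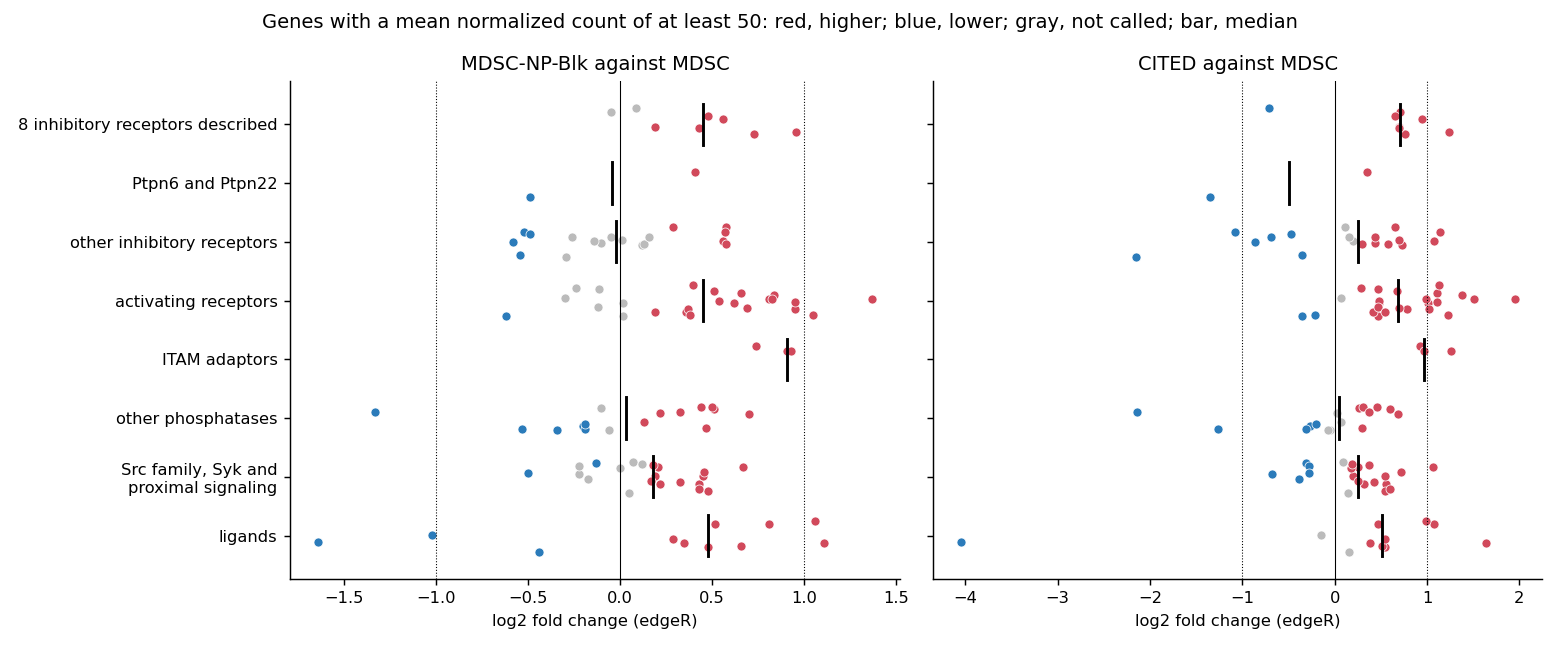
Log2 fold change (x axis) of genes in the lists (y axis) with a mean normalized count of at least 50, for both comparisons with MDSC; the bars are medians over the plotted genes, and dotted lines stand at -1 and 1. In CITED the plotted activating receptors center on 0.69 and the 3 adaptors on 0.97, while the other inhibitory receptors spread from -2.15 to 1.14 around 0.25.

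Transcript length moved with the groups. Within a library, Spearman's rho across 10542 genes between length and the log2 level relative to the mean of the gene over libraries was 0.218 to 0.347 in MDSC, -0.342 to -0.187 in CITED, and -0.422, -0.0469, 0.0917, and -0.243 in MDSC-NP-Blk replicates 1 to 4, so MDSC-NP-Blk replicate 1 had the lowest value of the 12. Lilrb4a and Cd300lf, with the shortest transcripts of the 10 genes (1462 and 1885 bases), were lower after the correction for length in both comparisons with MDSC: Lilrb4a was 0.49 in CITED and -0.24 with blank particles (edgeR adjusted p = 0.0011 for the latter), and Cd300lf was 0.54 and 0.06. Cd33, with the longest (5734 bases), was 0.95 and 0.85.

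**Figure D5:**
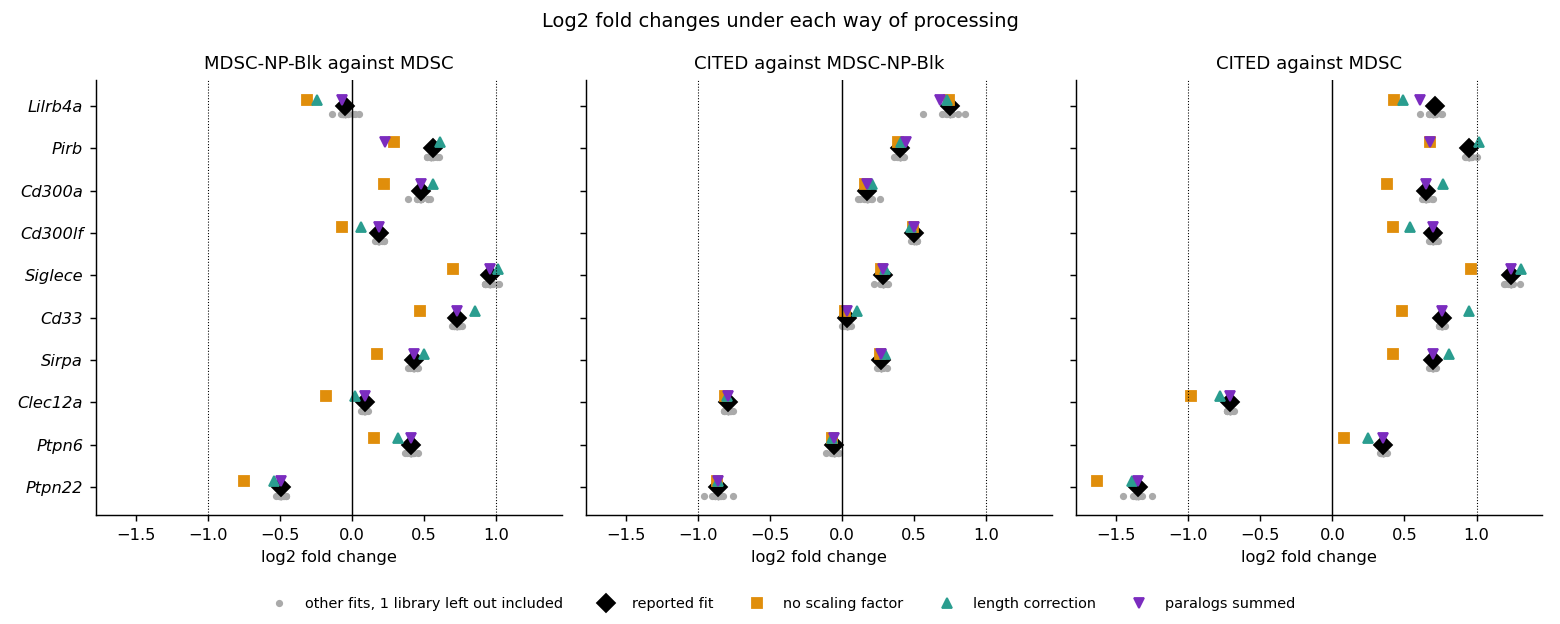
Log2 fold change (x axis) of each gene (y axis) in the 3 comparisons under every way of processing the counts, with dotted lines at -1 and 1. Without scaling factors (squares), values against MDSC shift to the left, so that Ptpn6 in CITED is at 0.08 and Cd300lf with blank particles at -0.07, whereas CITED against MDSC-NP-Blk barely moves; grey points include each fit with 1 library left out.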

How the data were processed

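RNA was measured in 12 libraries, 4 per group, and groups came from the sample titles. The authors quantified transcripts with Salmon 1.4.0 against GENCODE transcripts of GRCm39 (release not given in the sources used here), summed them per gene in R 4.3.2, and deposited raw counts per symbol; an entry with an empty symbol held 0 counts and was left out. Symbols with at least 2 counts in all were tested in R 4.3.3 with edgeR 4.0.16 (TMM factors, glmQLFit and glmQLFTest, group as the only term, all 12 libraries in 1 fit), with Benjamini-Hochberg adjustment over the 17676 genes. A gene was called at an adjusted p below 0.05, and with the fold change threshold a log2 fold change of 1 or more in either direction. The SE was taken from the log2 fold change and its F statistic.

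The 10 genes and the 6 lists (110 further genes, of which Pira6 was not matched and Sftpd did not pass the filter) were chosen with earlier results of these data known. From each list, the text names a part of the 3 genes with the lowest p in each direction with a mean normalized count of at least 50, plus paralogs and the 3 genes nearest in log2 fold changes against MDSC. Whether replicates came from separate mice or cultures is not detailed beyond their description as independent, so p-values measure the spread between these libraries. None of the 66 pairs of libraries held identical counts.

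Positions, transcript lengths, and sequences came from GRCm39 with GENCODE release M39. Tails were predicted from the longest coding transcript of the CCDS set as the part beyond the most hydrophobic segment of 19 residues. Salmon shares reads among similar transcripts by estimation, so counts of Lilrb4a and Pirb carry that uncertainty. Cd300lf, Siglece, and several others overlap genes on the other strand, and whether the libraries keep strand is not given in the sources used here.

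The alternatives were DESeq2 1.42.0, its size factors, no scaling factor, a filter of at least 10 counts in at least 4 libraries, no filter, a replicate block, a length correction (loess, span 0.5), paralogs summed, the 8 libraries of a comparison alone, and each library left out. The fit was tested on simulated data.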

Additional observations from a re-analysis of the deposited data

Results flagged for a closer look

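In CITED, replicate 3 held a Cd300lf normalized count of 9810 while the other 3 libraries lay between 9275 and 9340, so the gap made up 0.878 of the range of the group, past the 95% limit for a group of this size. This was 1 of 30 sets of 4 libraries examined for the 10 genes, and chance alone is expected to mark about 1 in 20. The value lies farther from both other groups than its neighbors do, and leaving out any single library kept the log2 fold change of Cd300lf between 0.67 and 0.73 in CITED against MDSC and between 0.48 and 0.52 against MDSC-NP-Blk.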

How the results depend on the processing

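The log2 fold changes of the 10 genes in the 3 comparisons were followed for direction and for passing an adjusted p of 0.05. With 1 library left out, 355 of 360 kept both (3 changed sign and 2 came to pass). The 360 include fits that left out a library of the group not compared. Under the other settings, 292 of 300 kept both (3 changed sign, 3 came to pass, and 2 no longer passed). The fold change threshold was not part of these counts. Without scaling factors, the median of all genes with a mean of at least 50 moved from 0.02 to -0.26 in CITED against MDSC and from 0 to -0.26 in MDSC-NP-Blk against MDSC. Higher genes then made up 25.7% instead of 50% of the calls in the first and 21.4% instead of 51.7% in the second (12.6% instead of 32.9% and 12.1% instead of 39.7% with the fold change threshold). In that setting, members past the fold change threshold in CITED against MDSC numbered 1 instead of 2, Ptpn6 was 0.08 in that comparison, and with blank particles Cd300lf was -0.07, Clec12a -0.18, and Lilrb4a -0.31. With the length correction, 1 gene (Siglece) instead of 0 passed the fold change threshold in MDSC-NP-Blk against MDSC, Cd300lf was 0.06 and Lilrb4a -0.24 there, and Cd300a was 0.21 and passed the test in CITED against MDSC-NP-Blk. Lilrb4a with blank particles was 0.05 when summed with Lilrb4b and Gm49339, -0.14 without MDSC-NP-Blk replicate 1, 0.01 without MDSC replicate 2, and 0.02 without MDSC-NP-Blk replicate 4, and Cd33 in CITED against MDSC-NP-Blk was 0 without MDSC-NP-Blk replicate 1. The cause of these shifts was not tested.

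With 1 library left out, the number of the 10 genes past the fold change threshold was 2 to 3 in CITED against MDSC and 0 to 1 in MDSC-NP-Blk against MDSC, where Siglece passed without MDSC replicate 2 or MDSC-NP-Blk replicate 4. The number of all genes past it was 1631 to 1772, 722 to 892, and 417 to 474 in the comparisons of CITED with MDSC, of blank particles with MDSC, and of CITED with blank particles. With a replicate block it was 1621, 766, and 441, and no call among the 10 genes changed. Deviations of libraries with the same number had mean correlations of 0.0106, -0.0174, and 0.051 over 10555 genes in the same 3 comparisons. The means for other numbers were -0.0036, 0.00611, and -0.0166. The best correlation was with the own number for 2, 0, and 4 of 8 libraries. CITED against MDSC-NP-Blk held the highest same-number value, 0.14. As all were low, the numbers were not taken as a pairing. Depth was not limiting for the receptors. Ptpn22 had the lowest counts and, in CITED, the largest relative spread of the 10 (17%).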
